A study of Mus musculus with 2 samples.

Results

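The Hox genes of paralog groups 1 to 12 were followed in Sox1-GFP+ cells of the mouse, sorted from the tail and from the brain. The members were all genes named Hox with a cluster letter a, b, c or d and a number from 1 to 12. The annotation holds 35 such genes, of which 33 were listed in at least 1 of the files, among 19608 genes listed in all. Hoxa6 and Hoxd1 were listed in neither file. Of the 33, 32 were found in at least 3 kept cells of the libraries together, and Hoxc5 was found in 1 cell. Paralog group 13 is not part of this set and had 1248 molecules in tail cells (443 CPM, molecules per 1000000 of all genes) and 8 in brain cells (1.25 CPM).

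Hox genes encode homeodomain transcription factors that give cells along the head-to-tail axis their regional identity. They lie in 4 clusters, Hoxa to Hoxd, and genes at the low-numbered end of a cluster are in general switched on earlier and farther forward in the embryo than genes at the high-numbered end. In the nervous system they are known from the hindbrain and spinal cord, while the forebrain and midbrain form without them, and their proteins bind DNA together with cofactors of the Pbx, Meis and Pknox families. Genes with the same number in different clusters are paralogs, which have related sequences and in part overlapping functions.

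RNA molecules were counted in single cells of 2 libraries, 1 for each tissue. Both came from Sox1-GFP knock-in mice, in which a green fluorescent protein reports the activity of Sox1, a gene of early neural progenitors, and GFP+ cells were sorted by flow cytometry. Tail tissue came from pups at postnatal days 1 to 5 and whole brain from adults of about 4 to 6 weeks, and both were minced and treated with trypsin. Each tissue was 1 biological replicate, the number of animals behind it is not given in the sources used here, and tissue, age and library cannot be told apart. No test across animals was possible, and no p-value is given. Cells with keratin and collagen transcripts were also present in the tail library.

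After filtering, 1964 tail cells carried 2817103 molecules (median 1282.5 per cell) and 7988 brain cells carried 6424466 (median 696). Otx2, a transcription factor of forebrain and midbrain, had 340 molecules in brain cells and 1 in tail cells. The libraries shared 29 cell barcodes, and none of them was a brain cell with a Hox molecule. Levels below are CPM of molecules summed over cells, and intervals in parentheses are exact 95% intervals that cover counting error only.

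The clusters lie on 4 chromosomes of the mouse genome build GRCm38. The 9 Hoxa members lie on chromosome 6, on the minus strand, and the 9 Hoxb members span chr11:96271457-96368256 on the plus strand. The 8 Hoxc members span chr15:102936757-103036852 and the 7 Hoxd members chr2:74675013-74748442, both on the plus strand. Some exons are shared, and the sources used here do not say whether counting used the strand. Hoxd3 and Hoxd4 share 388 exon bases on the same strand, and Hoxc10 and Hoxc5 share 166, so reads from these stretches cannot be assigned to 1 gene of the pair. On opposite strands, Hoxb3 shares 2250 exon bases with the antisense gene Hoxb3os, Hoxb2 shares 953 with it, Hoxa11 shares 800 with Hoxa11os and Hoxa7 shares 586 with Hoxaas3.

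The promoters of 4 members are printed because the results turn on these genes. Hoxb8 had most molecules in tail cells marked by Robo3, Hoxa10 and Hoxd10 stood out in tail cells marked by Pkd2l1, and Hoxb1 gave 9 of the 20 molecules seen in the brain. Each sequence runs 5′ to 3′ on the gene's strand over 240 bases, from 250 to 11 bases before the transcription start in RefSeq (GRCm38.p6). Capitals mark matches on either strand to TTTATG, a site of the kind bound by caudal (Cdx) factors, to TATAAA, the TATA element, and to TGATNNAT, a site of the kind bound by Pbx with a Hox protein.
Hoxb8 (chr11:96281655-96281894, plus strand): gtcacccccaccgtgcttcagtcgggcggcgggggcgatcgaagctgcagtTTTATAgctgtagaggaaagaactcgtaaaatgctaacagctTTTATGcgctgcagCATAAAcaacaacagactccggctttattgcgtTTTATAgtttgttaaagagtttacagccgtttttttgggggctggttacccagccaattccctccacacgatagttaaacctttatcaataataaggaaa
Hoxa10 (chr6:52240865-52241104, minus strand): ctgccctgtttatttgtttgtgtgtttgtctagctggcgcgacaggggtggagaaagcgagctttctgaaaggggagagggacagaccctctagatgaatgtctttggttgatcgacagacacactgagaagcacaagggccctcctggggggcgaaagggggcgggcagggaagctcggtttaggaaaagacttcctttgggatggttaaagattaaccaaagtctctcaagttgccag
Hoxd10 (chr2:74691641-74691880, plus strand): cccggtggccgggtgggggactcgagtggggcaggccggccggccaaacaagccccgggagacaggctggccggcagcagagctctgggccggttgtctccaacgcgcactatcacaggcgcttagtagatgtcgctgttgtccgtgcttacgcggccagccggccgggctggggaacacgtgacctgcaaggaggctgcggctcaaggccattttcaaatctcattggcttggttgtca
Hoxb1 (chr11:96365508-96365747, plus strand): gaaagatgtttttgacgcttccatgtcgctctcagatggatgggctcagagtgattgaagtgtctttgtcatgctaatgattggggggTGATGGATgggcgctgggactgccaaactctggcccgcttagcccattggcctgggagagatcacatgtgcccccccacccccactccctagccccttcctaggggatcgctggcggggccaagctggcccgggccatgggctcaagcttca

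The Hoxb8 window held 2 matches to TTTATG and 2 to TATAAA, none of which overlap. The Hoxb1 window held 1 match to TGATNNAT, and the Hoxa10 and Hoxd10 windows held no match to any of the 3. RefSeq windows were found for 18 of the 33 members, with 20 windows in all because some genes have 2. TTTATG was found in 5 of these 20 windows (25.0%), those of Hoxa7, Hoxb8, Hoxd3, Hoxd4 and Hoxd11, against 10.5% of the 32851 windows of all genes. TGATNNAT was found in 3 of 20 (15.0%), those of Hoxa2, Hoxb1 and Hoxd11, against 7.46%, and TATAAA in 2 of 20 (10.0%), those of Hoxa10 and Hoxb8, against 12.1%. In Hoxa10 the TATAAA match lay in the window of its other start, which is not printed. A match is only a run of letters, and binding was not measured.

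Tail cells carried 3513 molecules of the set against 20 in brain cells. The summed level was 1247 CPM (1206 to 1289) in tail cells and 3.11 CPM (1.9 to 4.81) in brain cells, and the ratio was 401 (259 to 657). All 33 members were seen in tail cells and 7 in brain cells. The rule for calling a difference asked for at least 50 molecules over both libraries and a whole interval beyond 4-fold. It could be applied to 20 members, all 20 were called higher in the tail, and 15 of these had no brain molecule. Of the 11347 genes to which the same rule applied, 720 (6.35%) were called higher in the tail, 529 (4.66%) were called lower, and the median tail over brain ratio was 1.21. The other 13 members had at most 34 molecules over both libraries and were not called.

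**Figure D1:**
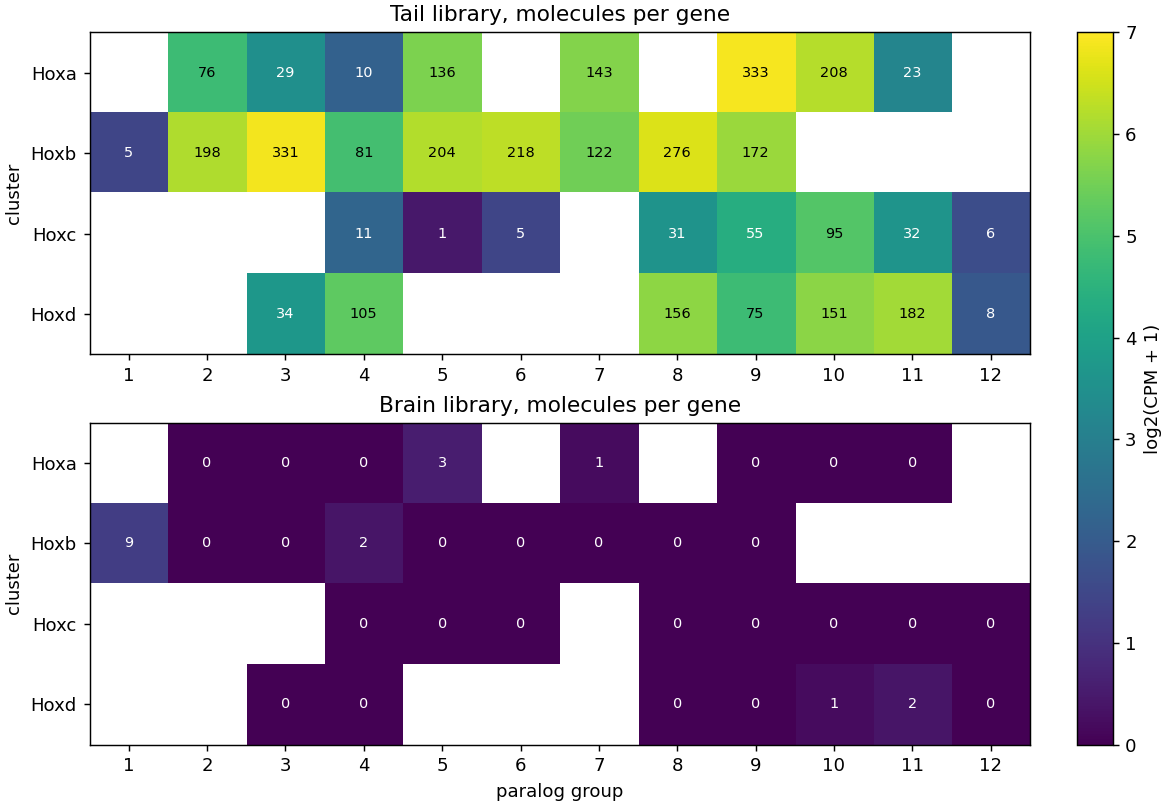
Molecules per gene in the tail library (top) and brain library (bottom), with clusters as rows and paralog groups 1 to 12 as columns. The printed number is the molecule count and the colour is log2(CPM + 1); white fields are combinations with no gene shown, and a gene absent from a file is drawn as 0. Tail molecules lie in all 4 clusters and are few in group 12, whereas most fields of the brain library are at 0.

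Tail cells showed molecules of all 4 clusters, in unequal amounts. Hoxb held 1607 of the 3513 molecules (45.7%, 44.1 to 47.4), Hoxa 959 (27.3%, 25.8 to 28.8), Hoxd 711 (20.2%, 18.9 to 21.6) and Hoxc 236 (6.72%, 5.91 to 7.6). The order was the same after division by exon length, with 46.8% for Hoxb, 24.0% for Hoxa, 20.6% for Hoxd and 8.66% for Hoxc. Capture was at the 3′ end, where counts need not grow with exon length. Values per kilobase, here and below, are therefore only an alternative scale. The 49 tail cells marked by Robo3, described below, held 498 of the 3513 molecules. Without them the shares were 40.8% for Hoxb, 29.4% for Hoxa, 23.1% for Hoxd and 6.73% for Hoxc.

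By paralog number, the molecules were spread over most of the length of the clusters. Group 12 had 14 molecules, while groups 2 to 11 had between 207 (group 4) and 635 (group 9) each. Per kilobase of exon, group 10 had the highest sum (197 molecules per kilobase), followed by groups 9 (184) and 8 (173). The groups hold 2 to 4 members each, so sums and not averages are compared.

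In Hoxa, the leading members in tail cells were Hoxa9, Hoxa10 and Hoxa7, genes of the central and posterior part of the cluster. Hoxa9 had 333 molecules in 266 tail cells (118 CPM, 106 to 132), the most of all members, and none in brain cells, which makes it at least 253-fold higher in the tail. Such bounds set a library without molecules of a gene to 3 molecules. Hoxa10 had 208 molecules in tail cells (73.8 CPM) and none in brain cells, at least 158-fold higher in the tail. Hoxa7 had 143 molecules in tail cells and 1 in the brain, a ratio of 326 (57.6 to 12969.8) whose upper bound a single brain molecule leaves almost unlimited. Hoxa5, known for its part in lung and neck development, had 136 molecules in tail cells and 3 in the brain, a ratio of 103 (34.6 to 508).

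In Hoxb, the leading members were Hoxb3, a gene of the hindbrain and neck, and the trunk genes Hoxb8 and Hoxb6. Hoxb3 had 331 molecules in 254 tail cells (117 CPM, 105 to 131), Hoxb8 had 276 in 144 cells (98.0 CPM, 86.8 to 110.2) and Hoxb6 had 218 in 140 cells (77.4 CPM, 67.5 to 88.4). None of the 3 had a brain molecule, so they were at least 252-fold, 209.8-fold and 166-fold higher in the tail. Per kilobase of exon Hoxb6 led all members with 111 molecules and Hoxb8 was next with 105, whereas Hoxa9, with its long exons, had 59.7 and ranked 10. With 3′ capture this division can itself lower genes with long exons. The molecules of Hoxb8 were concentrated, with up to 10 in 1 cell, while no tail cell had more than 4 molecules of Hoxa9.

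Hoxb1, a gene of hindbrain identity, was the exception within its cluster. It had 5 molecules in 5 tail cells (1.77 CPM) and 9 in 9 brain cells (1.4 CPM), a ratio of 1.27 (0.334 to 4.21). No difference between the libraries was detectable for Hoxb1 at this depth. It gave 9 of the 20 brain molecules, the most of the members named here.

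In Hoxc and Hoxd the leading members, apart from Hoxd8, were posterior genes. Hoxc10, a gene of lumbar spinal cord and hindlimb level, had 95 molecules in tail cells (33.7 CPM, 27.3 to 41.2), Hoxc9 had 55 (19.5 CPM) and Hoxc11 had 32 (11.4 CPM), with none in kept brain cells. Hoxc9 and Hoxc10 were at least 41.8-fold and 72.2-fold higher in the tail, and Hoxc11 was below the minimum for a call. Hoxc11 was listed in the brain file, in barcodes that did not pass the filter. Hoxd11 had 182 molecules in tail cells and 2 in 1 brain cell (ratio 208, 56.6 to 1727), Hoxd8 had 156 and 0 (at least 119-fold higher), and Hoxd10 had 151 and 1 (ratio 344, 60.9 to 13690.4). The members with fewest molecules in these clusters were Hoxc5 with 1 in tail cells, Hoxc6 with 5, Hoxc12 with 6, Hoxd12 with 8 and Hoxc4 with 11.

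A Hox molecule was found in 1251 of the 1964 tail cells (63.7%, 61.5 to 65.8) while 18 of the 7988 brain cells had one (0.225%, 0.134 to 0.356). Brain cells carried fewer molecules, so each cell was also thinned at random to 400 molecules, which left out 19 tail cells and 718 brain cells. After thinning, a Hox molecule remained in 639 of 1945 tail cells (32.9%) and in 5 of 7270 brain cells (0.0688%, 0.0223 to 0.16). Before thinning, 713 tail cells (36.3%) had no Hox gene, 551 (28.1%) had 1 and 700 (35.6%) had 2 or more, up to 12 genes and 27 molecules in a cell. A tail cell type that should lack Hox molecules was hardly present for comparison, since 2 tail cells were marked by Ctss, a gene of macrophages and microglia, and they had 0 Hox molecules among 3059.

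**Figure D2:**
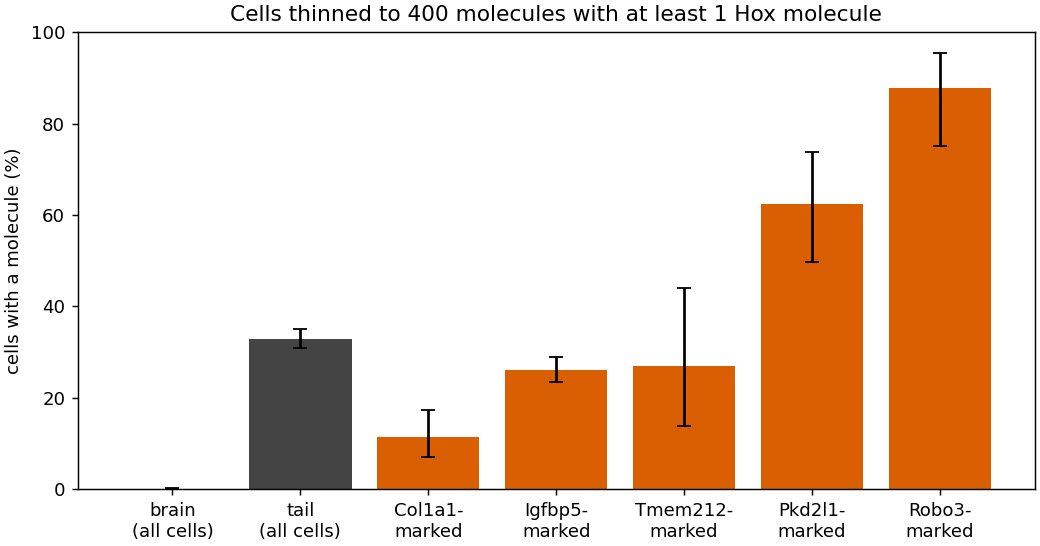
Percentage of cells with at least 1 Hox molecule of groups 1 to 12 after thinning each cell to 400 molecules, for all brain and tail cells (grey) and for tail cells grouped by marker gene (orange); error bars are exact 95% intervals for counting error. The share is 0.0688% in the brain and 32.9% in the tail, and within the tail it runs from 11.4% in cells marked by Col1a1 to 87.8% in cells marked by Robo3.

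Tail cells were next grouped by a marker gene. Cells with at least 2 molecules of Tmem212, Pkd2l1 or Robo3 or at least 5 of Col1a1 were taken as marked by that gene, and cells with at least 5 of Igfbp5 and none of the other marks as marked by Igfbp5. No cell carried more than 1 of the first 4 marks. Tmem212 is a gene of multiciliated ependymal cells, Pkd2l1 encodes a channel of neurons that contact the cerebrospinal fluid, Robo3 encodes an axon guidance receptor of commissural neurons, Col1a1 encodes a collagen of fibroblasts, and Igfbp5 encodes a binding protein of insulin-like growth factors. Each kind was checked with a list of markers that includes the marking gene itself, so 1 gene of every count follows from the grouping. Ratios for these counts were formed with an offset of 20 CPM. The Col1a1-marked cells had 6 of 6 fibroblast markers at 2 or more times their level in other tail cells, and the Tmem212-marked cells 7 of 7 ependymal markers. The Pkd2l1-marked cells had 8 of 8 markers of fluid-contacting neurons and the Igfbp5-marked cells 5 of 7 ependymoglial markers. The Robo3-marked cells had 6 of 10 markers of Robo3 neurons, and Barhl1, Barhl2, Lhx2 and Lhx9 of that list were at 0 in them. They also held 30 of the library's 76 molecules of Pax2 and 24 of its 34 of Pax8, genes of inhibitory spinal interneurons, so they are called by their marker only.

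**Figure D3:**
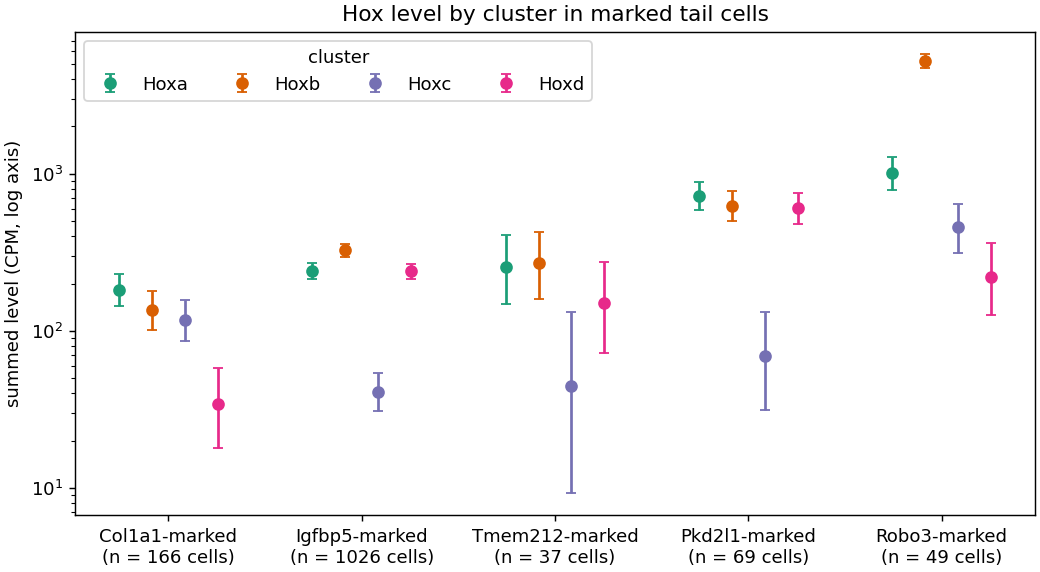
Summed level of Hox genes of groups 1 to 12 by cluster in 5 kinds of marked tail cells (log axis, CPM); points are sums over the cells of 1 library and error bars are exact 95% intervals for counting error. Hoxb in Robo3-marked cells reaches 5204 CPM, and Hoxd is the lowest cluster in Col1a1-marked (34.0 CPM) and Robo3-marked cells (221 CPM), whereas Hoxc is the lowest in the other 3 kinds.

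The 49 Robo3-marked cells had the highest Hox level. They carried 498 molecules of the set, 6892 CPM (6300.3 to 7525) against 1098 in all other tail cells, a ratio of 6.27 (5.7 to 6.9). Every one of the 49 cells had a Hox molecule, the median cell had molecules of 6 Hox genes, and no cell held more than 5.42% of the molecules. Their median total was 1481 molecules per cell, close to the 1282.5 of all tail cells, and after thinning 87.8% (75.2 to 95.4) still had a Hox molecule. Hoxb made up 75.5% (71.5 to 79.2) of these molecules and Hoxd 3.21% (1.85 to 5.17). By paralog number, groups 5 to 8 held 55.2% (50.7 to 59.6).

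The call rule within the tail asked for at least 20 molecules and a whole interval beyond 2-fold against all other kept tail cells. It applied to 25 members and called 13 higher in Robo3-marked cells and 0 lower, where 3.31% of the 11065 genes tested were called higher and 1.66% lower. The median ratio was 3.9 over the 25 members and 0.844 over all genes tested. Called higher were all Hoxb members tested (Hoxb2 to Hoxb9), with Hoxa5, Hoxa9, Hoxc9, Hoxc10 and Hoxc11. No Hoxd member was called.

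The 3 largest ratios of tested members in Robo3-marked cells belonged to neighbours in the middle of the Hoxb cluster. Here and below, members were ranked by the interval bound nearer to 1, which places a member with few molecules lower than its ratio alone would. Hoxb6 had 82 molecules in 35 of the 49 cells (1135 CPM) against 49.5 CPM in other tail cells, a ratio of 22.9 (17.2 to 30.3). Hoxb8 had 92 molecules in 32 cells (1273 CPM against 67.0), a ratio of 19.0 (14.6 to 24.5). Hoxb7 had 33 molecules in 21 cells (457 CPM against 32.4), a ratio of 14.1 (9.15 to 21.2). These cells, which are 49 of 1964, held 82 of the 218 tail molecules of Hoxb6 and 92 of the 276 of Hoxb8. Hoxb3 had 68 molecules (ratio 9.82, 7.41 to 12.9) and Hoxb5 had 39 (ratio 8.98, 6.16 to 12.8). Hoxc11 with 8 molecules (ratio 12.7, 4.92 to 29.1) and Hoxc9 with 12 (ratio 10.6, 5.09 to 20.5) had larger ratios than these but wider intervals.

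The 3 lowest-ranked members in Robo3-marked cells were Hoxd members, none of them called. Hoxd9 had 0 of its 75 tail molecules there, Hoxd4 had 1 of 105 (ratio 0.365, 0.00916 to 2.08) and Hoxd8 had 3 of 156 (ratio 0.745, 0.152 to 2.22). With a count of 0 set to 3 molecules, here and below, the bound for Hoxd9 is a ratio of 1.52, so the absence of Hoxd9 is not shown. Hoxc8 also had 0 molecules there, of 31 in the tail, which allows a ratio of up to 3.68.

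Robo3-marked cells often held molecules of several Hoxb genes. Molecules of at least 2 Hoxb genes were seen in 46 of the 49 Robo3-marked cells (93.9%, 83.1 to 98.7), in 23 of the 69 Pkd2l1-marked cells (33.3%, 22.4 to 45.7), in 60 of the 1026 Igfbp5-marked cells (5.85%, 4.49 to 7.46) and in 4 of the 166 Col1a1-marked cells (2.41%, 0.66 to 6.05). A molecule of Hoxb5, Hoxb6, Hoxb7 or Hoxb8, a set chosen after these values had been seen, was present in 47 of 49 Robo3-marked cells (95.9%) and in 11 of 166 Col1a1-marked cells (6.63%). These shares were not thinned, and the Col1a1-marked cells were the deeper ones, with a median of 1994.5 molecules. The shares also depend on the number of Hoxb molecules, which was 376 in the 49 Robo3-marked cells and 52 in the 166 Col1a1-marked cells. Whether Hoxb genes occurred together more often than these numbers alone would give was not tested.

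**Figure D4:**
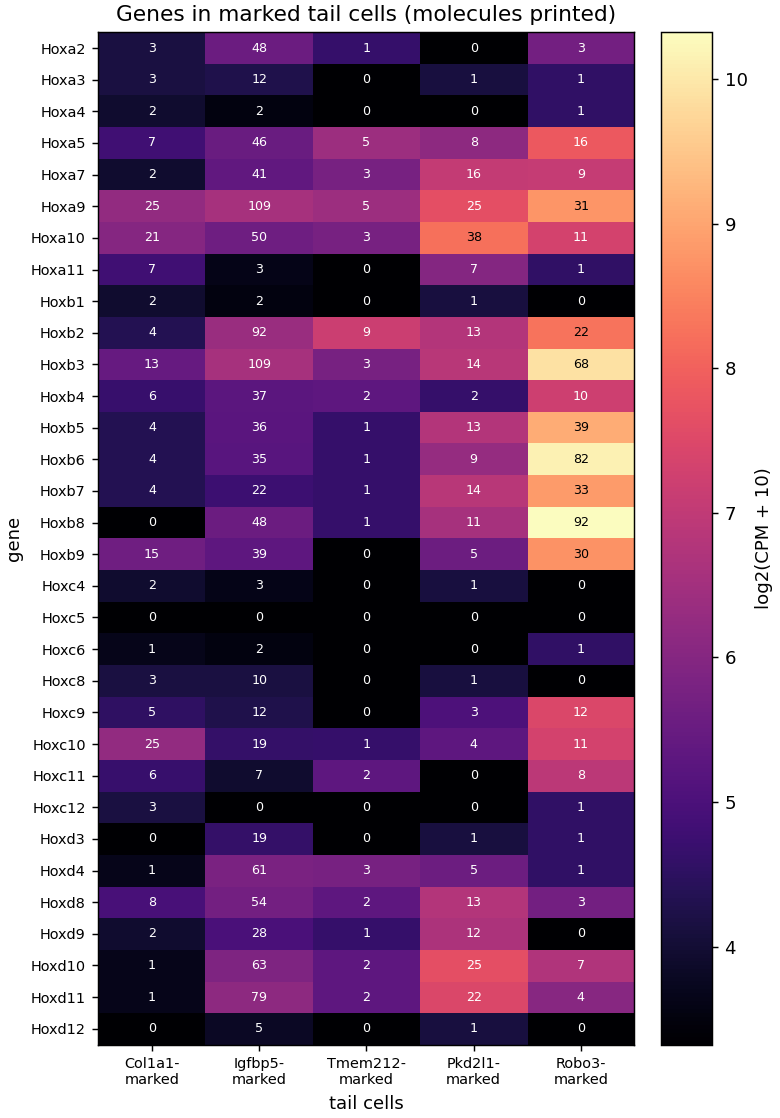
Level of 32 of the genes (rows, ordered by cluster and number) in 5 kinds of marked tail cells (columns), as log2(CPM + 10), with the molecule count printed in each field. Robo3-marked cells are bright from Hoxb2 to Hoxb9, with 92 molecules of Hoxb8, and Pkd2l1-marked cells have their highest values at Hoxa9, Hoxa10, Hoxd10 and Hoxd11.

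The 69 Pkd2l1-marked cells had the second highest level of the marked kinds, and posterior genes led among their Hox molecules. They carried 265 molecules, 2025 CPM (1789 to 2284) against 1209 in other tail cells, a ratio of 1.67 (1.47 to 1.9). The share of cells with a Hox molecule was 94.2% (85.8 to 98.4), and 62.3% (49.8 to 73.7) after thinning. Hoxa held 35.8% of the molecules, Hoxb 30.9%, Hoxd 29.8% and Hoxc 3.4%. Groups 9 to 12 held 53.6% (47.4 to 59.7), and the mean paralog number of a molecule was 7.86 against 6.50 in Robo3-marked cells and 7.81 in Col1a1-marked cells.

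Of the 25 members tested, 3 were called higher in Pkd2l1-marked cells and 0 lower, where 3.84% of all genes were called higher and 3.28% lower. With lower marker thresholds 5 members were called higher. All 3 of the former are posterior genes. Hoxa10 had 38 molecules in 24 cells (290.4 CPM against 63.3), a ratio of 4.59 (3.14 to 6.55). Hoxa11, a gene of the limb and posterior trunk, had 7 molecules in 7 cells (53.5 CPM against 5.96), a ratio of 8.98 (3.12 to 23.1) that rests on these few molecules. Hoxd10, a gene of lumbar motor neuron identity, had 25 molecules in 21 cells (191 CPM against 46.9), a ratio of 4.07 (2.54 to 6.29). Hoxd9 (12 molecules, ratio 3.91, 1.92 to 7.32) and Hoxd11 (22 molecules, ratio 2.82, 1.72 to 4.42) had lower bounds just under 2-fold and were not called.

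Ranked lowest in Pkd2l1-marked cells were Hoxa2, Hoxb9 and Hoxb3. Hoxa2, the most anterior Hox gene of the hindbrain, had 0 of its 76 tail molecules there. With 0 set to 3 molecules its ratio is at most 0.81. The exact interval of its level reached 28.2 CPM, close to the 28.3 CPM of other tail cells, and Hoxa2 was not called. Hoxb9 had 5 molecules (ratio 0.615, 0.197 to 1.46) and Hoxb3 had 14 (ratio 0.907, 0.49 to 1.54), and no difference from other tail cells was detectable for either. Members with fewer molecules had ratios below that of Hoxb3 with wider intervals, such as Hoxb4 (0.52, 0.0619 to 1.94) and Hoxd3 (0.622, 0.0153 to 3.72), and Hoxc11 had 0 molecules. The median ratio was 1.18 over the 25 members, or 1.28 with the 2 members at 0 set to 3 molecules, and 0.869 over all genes tested.

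The 166 Col1a1-marked cells had the lowest level, together with another make-up by cluster. They carried 180 molecules, 470.2 CPM (404 to 544) against 1369 in other tail cells, a ratio of 0.343 (0.294 to 0.399). Their share of cells with a Hox molecule was 60.8% (53.0 to 68.3) at their greater depth and 11.4% (7.03 to 17.3) after thinning. Hoxc held 25.0% (18.9 to 32.0) of the molecules and Hoxd 7.22% (13 of 180), and groups 9 to 12 held 61.7% (54.1 to 68.8). The fibroblast marker list summed to 71741 CPM in these cells and to between 41.5 and 179 CPM in the other 4 kinds, so collagen transcripts and the low Hox share of their RNA moved together, and the part of the former in the latter was not tested. The summed Hoxc level, 118 CPM (85.7 to 157), was above the 78.5 CPM of other tail cells (ratio 1.5, 1.06 to 2.08), whereas Hoxb was at a ratio of 0.213 (0.158 to 0.28) and Hoxd at 0.118 (0.0627 to 0.204).

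Of the 25 members tested, 0 were called higher in Col1a1-marked cells and 9 lower, where 4.93% of all genes were called higher and 8.17% lower. The 9 were Hoxa7, Hoxb2, Hoxb3, Hoxb5, Hoxb6, Hoxb8, Hoxd4, Hoxd10 and Hoxd11. Hoxb8 had 0 molecules in the 166 cells against 276 in other tail cells, a ratio of at most 0.0691. Hoxd11 had 1 molecule against 181 (ratio 0.0351, 0.000885 to 0.198) and Hoxd10 had 1 against 150 (ratio 0.0424, 0.00107 to 0.24). The median ratio was 0.261 over the 25 members, or 0.344 with the members at 0 set to 3 molecules, and 0.748 over all genes tested.

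Of the members tested, posterior Hoxa and Hoxc genes had the largest ratios in Col1a1-marked cells, none of them called. Hoxc10 had 25 molecules in 22 of the cells (65.3 CPM against 28.8), a ratio of 2.27 (1.38 to 3.63). Hoxa11 had 7 molecules (ratio 2.78, 0.968 to 7.15) and Hoxc11 had 6 (ratio 1.47, 0.494 to 3.65), and for neither was a difference detectable. Hoxa9 with 25 molecules and Hoxa10 with 21 were the other members with over 20 molecules in these cells, so 71 of the 180 molecules came from Hoxa9, Hoxa10 and Hoxc10.

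The 1026 Igfbp5-marked cells, the most numerous kind, carried the most Hox molecules of the 5 kinds but at a level below the rest. They had 1094 molecules, 846 CPM (797 to 898) against 1587 in other tail cells, a ratio of 0.533 (0.496 to 0.573). A Hox molecule was seen in 56.1% (53.0 to 59.2) of the cells, and in 26.1% (23.5 to 28.9) after thinning. The mean paralog number was 6.52, and groups 1 to 4 held 35.3% (32.4 to 38.2) of the molecules against 14.3% (10.4 to 19.1) in Pkd2l1-marked cells.

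Of the members tested, the anterior genes Hoxa2 and Hoxd4 had the largest ratios in Igfbp5-marked cells. Hoxa2 had 48 of its 76 tail molecules there (37.1 CPM against 18.4), a ratio of 2.02 (1.24 to 3.35), and Hoxd4 had 61 of 105 (ratio 1.63, 1.09 to 2.47). Hoxb2 was level with other tail cells (ratio 1.02, 0.766 to 1.37). None of the 25 members was called higher and 6 were called lower (Hoxb5, Hoxb6, Hoxb7, Hoxb8, Hoxb9 and Hoxc10), where 3.32% of all genes were called higher and 6.72% lower. Ranked lowest were Hoxb6 (ratio 0.226, 0.152 to 0.325), Hoxb8 (0.248, 0.178 to 0.34) and Hoxb5 (0.253, 0.171 to 0.364), while Hoxa11 had a smaller ratio on 3 molecules (0.177, 0.0337 to 0.596) and was not called. The other cells of this comparison include the Robo3-marked cells, and without them only Hoxb5 was called lower, 1 member in place of 6, with a ratio of 0.64 for the summed level.

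The 37 Tmem212-marked cells gave 48 molecules, which limits what can be said of single genes. Their level was 719 CPM (530.1 to 953) against 1259.8 in other tail cells, a ratio of 0.571 (0.42 to 0.758), and 1 cell held 12.5% of the molecules. Of the 25 members, 0 were called higher and 0 lower, where 2.74% of all genes were called higher and 0.606% lower. Hoxb2 had the most molecules (9 in 6 cells, ratio 1.96, 0.883 to 3.8), followed by Hoxa5 with 5 (ratio 1.57, 0.502 to 3.76), and Hoxc11 had 2 in 1 cell (ratio 2.75, 0.318 to 10.8). At the low end Hoxb8 had 1 molecule (ratio 0.15, 0.00378 to 0.842), Hoxb9 had 0 (ratio at most 0.718) and Hoxb6 had 1 (ratio 0.19, 0.00478 to 1.07). The Hoxa to Hoxd shares of 35.4%, 37.5%, 6.25% and 20.8% had intervals that overlapped those of the Igfbp5-marked cells.

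The level of Hox molecules in the tail thus ran, from low to high, through Col1a1-, Tmem212-, Igfbp5-, Pkd2l1- and Robo3-marked cells. The interval of the Tmem212-marked cells overlapped those of both its neighbours, and the Igfbp5-, Pkd2l1- and Robo3-marked cells had intervals apart from each other. All 5 comparisons draw on the same tail cells as the other side. The thinned shares of cells and the summed CPM, which are not independent of each other, both put the Col1a1-marked cells lowest and the Robo3-marked cells highest.

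The 20 brain molecules were spread over 18 cells, 17 of which had 1 molecule each. Hoxb1 accounted for 9 of them, Hoxa5 for 3, Hoxb4 and Hoxd11 for 2 each and Hoxa7 and Hoxd10 for 1 each, and every molecule rested on 1 read. Among brain cells marked by at least 2 molecules of Agt, an astrocyte gene, 4 of 1172 (0.341%, 0.0931 to 0.872) had a Hox molecule. Among cells marked in the same way by Dcx, a gene of young neurons, there were 3 of 628 (0.478%, 0.0986 to 1.39). The part of free RNA in these single molecules was not tested.

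In 1 brain cell several Hoxd genes occurred together. This cell had 1 molecule of Hoxd10, 2 of Hoxd11 and 3 of Hoxd13 among 2312 molecules. It also had 45 molecules of Col1a1 and 0 of Sox1, Sox2 and Agt, genes that were looked up after the cell had been found. Without it the brain library held 17 molecules of the set.

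The genes beside Hoxa, Hoxc and Hoxd that could be tested were not called, whereas the only 1 tested beside Hoxb was called higher in the tail. Of 11 genes beside the clusters listed for the comparison, 7 had enough molecules, 1 was called higher in the tail and 0 lower. Over all genes tested, 6.35% were called higher and 4.66% lower. On the Hoxa side Skap2 was at 29.1 CPM in the tail and 30.4 in the brain (ratio 0.959, 0.732 to 1.25). On the Hoxc side Calcoco1 (0.974, 0.834 to 1.13), Cbx5 (1.05, 0.959 to 1.16) and Smug1 (1.35, 0.958 to 1.89) had ratios near 1, and on the Hoxd side Lnpk was at 0.747 (0.546 to 1.01) and Mtx2 at 2.04 (1.6 to 2.59). Ttll6, which encodes an enzyme that modifies tubulin and lies beside Hoxb13, was counted 215 times in tail cells and 12 times in brain cells, a ratio of 40.9 (22.9 to 80.3). In the tail its level was 225 CPM in Tmem212-marked and 109.8 CPM in Igfbp5-marked cells, with 0 molecules in Robo3- and Pkd2l1-marked cells, a distribution unlike that of Hoxb8. No other gene listed beside Hoxb had enough molecules for a call. Evx1 and Evx2, homeobox genes at the ends of Hoxa and Hoxd, had 0 molecules in both libraries.

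**Figure D5:**
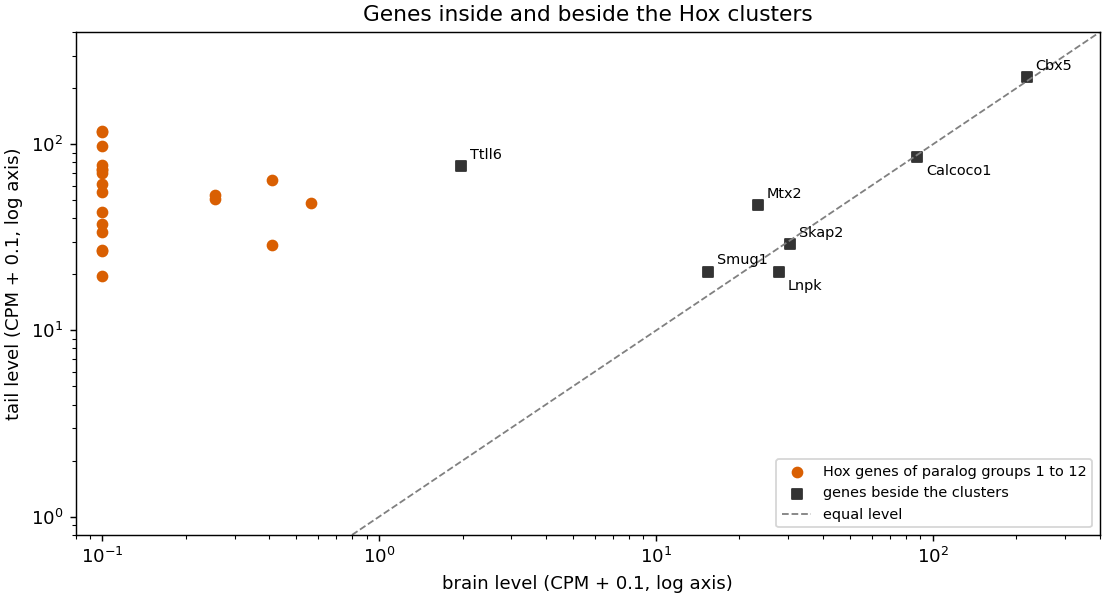
Tail level against brain level (CPM + 0.1, both axes logarithmic) for the 20 Hox genes of groups 1 to 12 with at least 50 molecules (circles) and the 7 genes beside the clusters with as many (squares, named). The dashed line marks equal levels. All circles lie far above the line, 15 of them at 0 brain molecules, and the square farthest above it is Ttll6.

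Of 16 RNA genes listed from within the clusters, 6 are microRNA genes. Only 1 of the 16 had enough molecules for a call, and it was called higher in the tail. Over all genes tested, 6.35% were called higher and 4.66% lower. The RNA called was Hoxb5os, antisense to Hoxb5, with 65 tail molecules and no brain molecule (at least 49.4-fold higher). It shares 100 exon bases with Hoxb5 on the opposite strand. Hotair, from the Hoxc cluster, had 43 tail molecules and 0 in the brain, and Hottip, from the posterior end of Hoxa, had 29 and 0. Hotairm1, from the anterior end of Hoxa, had 21 tail and 16 brain molecules (ratio 2.99, 1.49 to 6.14). Hotairm1 and Hoxb1 had the most brain molecules among the members and RNAs named here, and both lie at the anterior end of a cluster. The 6 microRNA genes of the clusters on this list had 0 molecules in both libraries. Whether 3′ capture could detect such short RNAs was not tested, so their absence is not shown.

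Genes whose products act with or upstream of Hox proteins differed less than the Hox genes. Among the 9 cofactor genes, all tested, 1 was called higher in the tail and 0 lower. Over all genes tested, the shares called were 6.35% higher and 4.66% lower. The cofactor gene called was Pbx4, with 60 tail and 20 brain molecules (ratio 6.84). Its lower bound of 4.07 was only just above the 4-fold limit. Meis2 was level between the libraries, at 512 and 526 CPM (ratio 0.972, 0.913 to 1.03). Within the tail it was uneven, with 1949 CPM in Pkd2l1-marked cells against 401 CPM in Robo3-marked cells and 62.7 CPM in Col1a1-marked cells. Robo3-marked cells had the highest level of Pbx3 among the 5 kinds (249 CPM, 18 molecules).

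Of 11 caudal regulators, genes that act on Hox clusters in the embryonic tail bud, 3 had enough molecules and 0 were called in either direction. Rarg, a retinoic acid receptor, came nearest (44.7 and 10.4 CPM, ratio 4.29, 3.16 to 5.86). Cdx2, Cdx4 and Fgf8 had 0 molecules in both libraries, and Cdx1 had 4 and 0. All 17 genes of the Polycomb and Trithorax groups, which keep Hox genes off or on, were tested and 0 were called, with Ezh2 at 186 and 151 CPM (ratio 1.23, 1.11 to 1.37) and Kmt2a at 182 and 145 CPM (ratio 1.26, 1.13 to 1.41). Of 19 genes of forebrain, midbrain and hindbrain identity, 15 were tested. Of these, 5 (Emx2, Six3, Otx1 and Otx2 among them) were called higher in the brain and 3 (Pax2, Gbx2 and Irx2) in the tail. Over all genes tested, 4.66% were called higher in the brain and 6.35% in the tail, and lists this short could hold 0 calls at those shares.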

How the data were processed

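Molecules were counted in Sox1-GFP+ cells of 1 tail and 1 brain library on the BD Rhapsody system. The authors deposited molecule counts. Per the file headers these counts came from the BD Rhapsody WTA Analysis Pipeline 1.10.1 (a later release is named in the methods of the study), run on GRCm38 with GENCODE vM19 and with correction of molecular identifiers. Error-corrected molecule counts were used, and uncorrected ones as an alternative. A cell was kept if it had over 200 genes, under 4000 genes and less than 40% of mitochondrial molecules (1964 of 2469 tail and 7988 of 12111 brain barcodes). No doublet caller was run. A gene not listed for a cell was taken as 0. Capture is at the 3′ end, and exon lengths and positions came from GENCODE vM21.

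Levels were summed over kept cells. Shares have Clopper-Pearson intervals, sums exact Poisson intervals and ratios conditional exact binomial intervals (Python 3.11.15, scipy 1.17.1), and edgeR 4.0.16 gave TMM factors as an alternative scale. The interval code was tested on simulated data. With 1 library per group no test was run. Given in full were the 3 members of each cluster with most tail molecules, members with at least 3 brain molecules, and the 3 highest- and lowest-ranked ratios of each marked kind, by the interval bound nearer to 1. The members and lists were chosen with earlier results of these data known. Alternatives were other cell filters, marker thresholds, thinning depths, minimum counts and scales. Strand use in counting was not given in the sources used here. Some genes of the lists are not reported here.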

Additional observations from a re-analysis of the deposited data

Results flagged for a closer look

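Barcodes that failed the filter on genes or mitochondrial share were used in no comparison, and those of the tail file held Hox molecules above the level of the brain. The 505 tail barcodes that failed carried 30 molecules of Hox genes of groups 1 to 12 in 26 barcodes, from 15 genes, which is 193 CPM (130.1 to 275, counting error only) against 1247 CPM in kept tail cells. The 4123 brain barcodes that failed carried 6 such molecules, 5.78 CPM (2.12 to 12.6). Of the failed barcodes, 356 tail and 3428 brain barcodes had at least 40% mitochondrial molecules.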

How the results depend on the processing

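Of 177 recomputed values of 29 results, 151 stayed within the counting interval of the reported value (for counts of genes, within 1.5 times), 26 moved and 0 changed direction. Levels, shares, mean paralog numbers and counts of genes have no direction, so only the ratios could have changed it. The values with each marker taken on its own could change only for Igfbp5-marked cells, because no cell carried more than 1 of the other marks. Those of the other kinds are among the values that stayed. No paired analysis was possible because each group is 1 library. With cells under 20% mitochondrial molecules, the thinned share was 36.2% for tail cells and 0.176% for brain cells. Without a cell filter the tail level was 1192 CPM and the ratio of Igfbp5-marked cells 0.576. TMM scaling, which shifted the tail over brain ratio of every gene by -0.36 on the log2 scale, gave 1102 CPM for the tail, and the mean over cells gave 1313 CPM. With the TMM shift, the lower bound of the cofactor gene Pbx4 (4.07) would lie below the 4-fold limit of the call rule. A minimum of 200 molecules left 6 members called higher in the tail, since fewer could be tested. The shares of tail and brain cells were 63.7% and 0.225% without thinning, 51.2% and 0.298% at 800 molecules per cell, and 10.3% and 0% when 2 molecules were asked of a thinned cell. Lower marker thresholds gave 6271 CPM in Robo3-marked cells and 5 members called higher in Pkd2l1-marked cells, and higher ones gave 492 CPM and a ratio of 0.392 in Tmem212-marked cells. Per kilobase of exon the Hoxa and Hoxc shares were 24.0% and 8.66%. Leaving out the Robo3-marked cells, an alternative chosen after seeing the data, gave 1098 CPM for the tail, shares of 29.4% (Hoxa), 40.8% (Hoxb) and 23.1% (Hoxd), ratios of 0.64 for Igfbp5-marked and 1.93 for Pkd2l1-marked cells, and 1 member called lower in Igfbp5-marked cells. It left 19 members called higher in the tail, without Hoxc9, and 8 called lower in Col1a1-marked cells, without Hoxb3. Apart from these constructions, the cause of a shift was not tested. Depth limited the 13 members with at most 34 molecules, the Tmem212-marked cells and all brain values.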

Other observations

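Cells of the skin were also present in the tail library. The 81 tail cells with at least 2 molecules of Krt5, a keratin of basal keratinocytes, carried 147 molecules of Hox genes of groups 1 to 12, 804 CPM (679 to 945), a ratio of 0.629 (0.53 to 0.742) to all other tail cells. Hoxa held 36.1% of these molecules, Hoxd 27.2%, Hoxb 21.8% and Hoxc 15.0%, and groups 9 to 12 held 48.3% (40.0 to 56.7). Hoxb8 had 0 molecules in these cells too, which allows a ratio of at most 0.157. The keratinocyte markers summed to 15030.4 CPM in these cells and to 31.4 CPM in the brain.

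The 617 tail cells that none of the 5 genes marked carried 1428 Hox molecules, 1638 CPM (1554 to 1725), a ratio of 1.53 (1.43 to 1.64) to the marked cells. Their shares by cluster, 27.5% Hoxa, 46.1% Hoxb, 6.51% Hoxc and 19.9% Hoxd, had intervals that contain the shares over all tail cells. The unmarked cells gave 1428 of the 3513 tail molecules, so the likeness of these shares is in part built in.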
